A study of Mus with 8 samples.

Results

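The 10 genes Axin2, Lgr5, Nkd1, Nkd2, Lef1, Tcf7, Rnf43, Znrf3, Sp5 and Apcdd1 are direct or commonly used targets of Wnt signalling whose products act in or on the cell that makes them. They were found among 22911 genes on the array as the genes to which the RefSeq accession of a non-control probe mapped, which gave 15 probes. Of the 10 genes, 9 passed the filter on dim probes used for the comparison, and Sp5 did not. Expression was measured in whole subcutaneous tumours grown from Pan02 cells, a mouse pancreatic cancer line. The host was either a wild-type B6 mouse (Control, 4 tumours) or a B6 mouse of the genotype Ext1 flox/flox; S100a4-Cre (Mutant, 4 tumours). Both groups received the same Pan02 cells, which carry neither the floxed alleles nor the Cre, and tumours were taken after 36 to 40 days. S100a4-Cre acts in fibroblasts but also in some other host cells that express S100a4, so the deletion is not limited to one cell type. The ages of the hosts are not given in the sources used here.

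When a Wnt ligand binds Frizzled and Lrp5 or Lrp6, the complex that degrades beta-catenin is switched off, and beta-catenin enters the nucleus to act with Tcf and Lef factors. Many of the genes then induced are negative regulators of the pathway, so that their transcripts serve as a readout of its activity. Ext1 is one of the polymerases that build heparan sulfate, a sugar chain of the cell surface and matrix to which Wnt ligands and several of their modulators bind. The comparison asks how this readout differs between whole tumours when host cells of the S100a4 lineage lose the enzyme.

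From each tumour 0.5 ug of RNA was labelled with Cy3 for 1 array, and between 61.5% and 67.2% of probes were well above background. All 8 arrays lay on 1 slide, with Control 1 and 2 and Mutant 1 and 2 in row 1 and the others in row 2. Ext1 itself read 3.07 ± 0.76 (log2 level, SD, n = 4) in Control tumours and 3.15 ± 0.22 (SD, n = 4) in Mutant ones, which checks no deletion, because the tumour cells keep the gene and the place of the probe relative to the floxed part is not known here. Of the simple epithelial markers, Krt18 and Krt8 were well above background on all 8 arrays and Epcam on none. In whole tumours, fewer cells of a type and less RNA per cell cannot be told apart. A level is the log2 signal minus that of the array's 75th percentile and is compared only within a probe, and a difference is Mutant minus Control.

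None of the 9 measured genes was called between the hosts, although 7 of them had a mean difference above 0. The widest differences were those of the transcription factor Lef1 (3.15-fold), the membrane-bound Wnt inhibitor Apcdd1 (2.51-fold) and the Dishevelled antagonist Nkd1 (2.15-fold). Axin2 was at 1.68-fold, Lgr5 at 1.57-fold, Tcf7 at 1.24-fold and Znrf3 at 1.10-fold, while Nkd2 stood at 0.992-fold and Rnf43 at 0.836-fold. The median difference of the 9 genes was 0.65, beside 0.01 over the 16068 genes tested, of which 52.4% were above 0. At an adjusted p under 0.05 limma called 0 of the 9 genes and 0 of all genes (0%), with an adjusted p = 1.00 for each of the 9. Lgr5 was the 1 gene of the 9 at an unadjusted p under 0.05, against 467 genes or 2.91% of all (1.87% in the higher direction). Lef1, Apcdd1 and Nkd1 were the 3 at least 2-fold higher, as were 2.23% of all genes. In none of the 9 were the groups free of overlap, where 1.42% of all genes had no overlap. The 95% intervals of Lef1, Apcdd1, Nkd1 and Axin2 were wide, from -0.87 to 4.19, -0.86 to 3.52, -0.79 to 3.00 and -2.01 to 3.51.

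**Figure D1:**
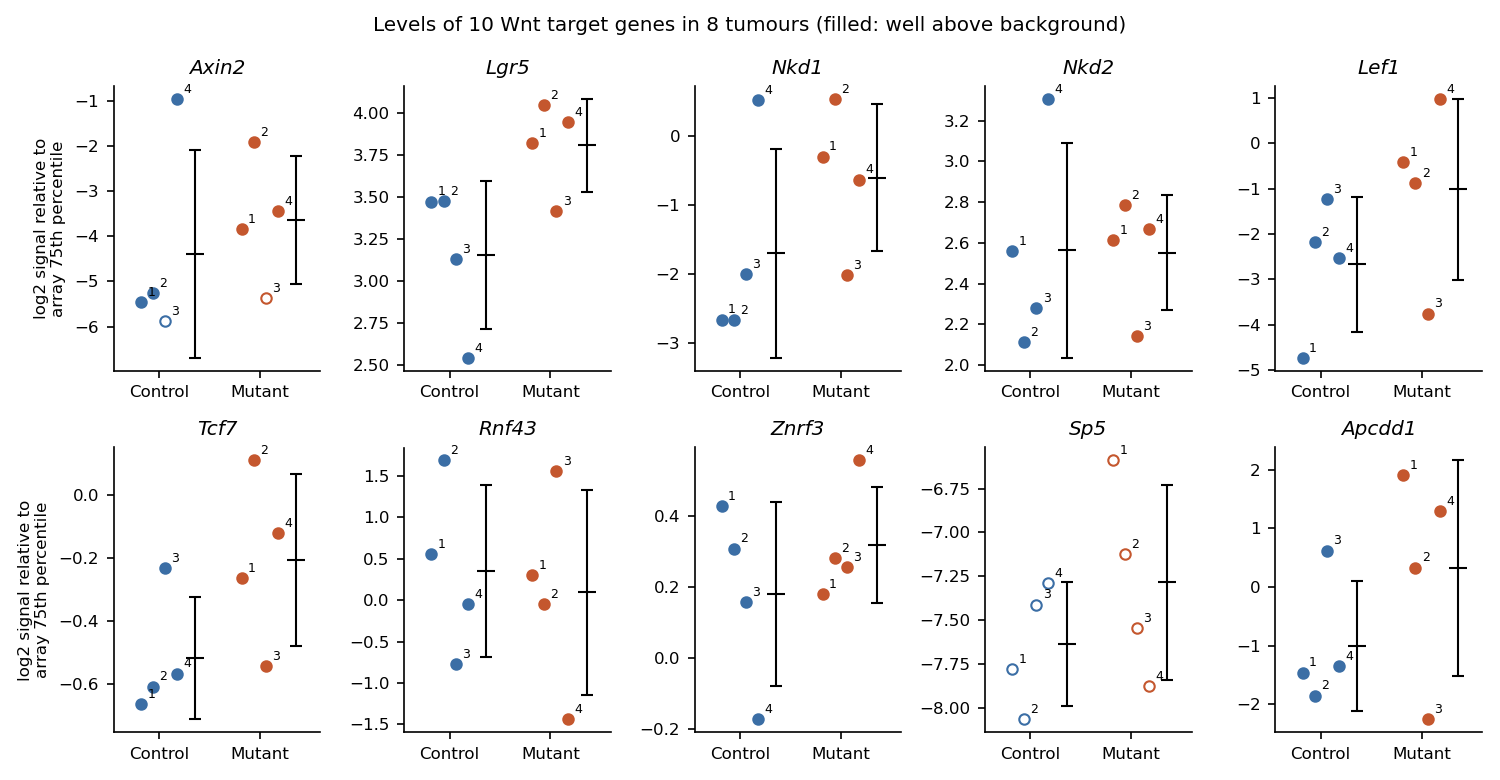
Log2 level (signal minus the array 75th percentile) for each of the 10 genes in 4 Control and 4 Mutant tumours, with the tumour's number beside each point, the mean and SD at the right of each group, and an open point where the probe was not well above background. Control 4 stands above the other Control tumours for Axin2, Nkd1 and Nkd2, and Mutant 3 lies below the other Mutant tumours for Axin2, Nkd1, Nkd2, Lef1, Tcf7, Lgr5 and Apcdd1; for Sp5 every point is open.

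Axin2 and the 2 Naked genes encode feedback inhibitors that work inside the cell. Axin2 is the inducible scaffold of the beta-catenin destruction complex and the most widely used single readout of the pathway. Control 1 to 4 read -5.46, -5.27, -5.89 and -0.95 on the Axin2 probe, against Mutant 1 to 4 with -3.84, -1.91, -5.37 and -3.45. Control 4 held the highest Axin2 level of all 8 tumours, and the other 3 Control tumours lay together with Mutant 3 at the low end. The signal was not well above background in Control 3 and Mutant 3, so the 30.5-fold span between the highest and the lowest tumour rests in part on dim spots. The groups overlapped (difference 0.75 with a standard error, SE, of 1.19; two-sided exact permutation p = 0.600). Without Control 4 the Axin2 difference was 1.89, without Mutant 2 it was 0.17, and with normexp background correction it was 0.10. A further Axin2 probe was well above background on only 2 arrays, those of Control 4 (-3.93) and Mutant 2 (-5.52), which are also the 2 highest tumours on the main probe.

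Nkd1, which binds Dishevelled and dampens the signal downstream of the receptor, was well above background on all 8 arrays. Its level was -2.67, -2.67, -2.00 and 0.53 in Control 1 to 4, against -0.30, 0.54, -2.02 and -0.63 in Mutant 1 to 4. Mutant 1, 2 and 4 were thus higher than 3 of 4 Control tumours, whereas Control 4 was level with Mutant 2 and Mutant 3 with Control 3. The difference was 1.10 with an SE of 0.82 (two-sided exact permutation p = 0.343), which became 1.85 without Control 4 and 0.72 without Mutant 2. Its paralog Nkd2 read 2.56, 2.11, 2.28 and 3.31 in Control 1 to 4, against 2.61, 2.79, 2.14 and 2.67 in Mutant 1 to 4, a difference of -0.01 with a 95% interval from -0.65 to 0.63. Control 4 was again the highest tumour and Mutant 3 the lowest Mutant tumour. The sign of the Nkd2 difference turned without Control 4 (0.24) and without Mutant 3 (0.13). A second Nkd2 probe, dimmer but well above background on all 8 arrays, gave another picture. It stood at -3.19, -2.84, -0.64 and 0.26 in Control 1 to 4, against 0.49, 0.36, -3.36 and 0.48 in Mutant 1 to 4, so that Mutant 1, 2 and 4 exceeded every Control tumour and Mutant 3 lay below all of them. The difference on this probe was 1.09 with an SE of 1.09 (limma adjusted p = 1.00 over all probes; two-sided exact permutation p = 0.343), and no direction is stated for Nkd2.

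Lef1 and Tcf7 encode DNA-binding partners of beta-catenin that are themselves induced by the pathway, and both are also known as transcription factors of T cells. Lef1 had the widest range of the measured genes, 52.7-fold between Control 1 and Mutant 4. The level was -4.74, -2.19, -1.24 and -2.53 in Control 1 to 4, against -0.41, -0.88, -3.76 and 0.98 in Mutant 1 to 4. As for Nkd1, 3 of 4 Mutant tumours lay above the Control tumours, here above all 4 of them, and Mutant 3 was lower than every tumour but Control 1. The difference of 1.66 had an SE of 1.09 (two-sided exact permutation p = 0.229); without Mutant 3 it was 2.57 and without Control 1 it was 0.97. Tcf7 moved far less, over a 1.71-fold range, with -0.66, -0.61, -0.23 and -0.57 in Control 1 to 4, against -0.26, 0.11, -0.54 and -0.12 in Mutant 1 to 4. Mutant 2 and Mutant 4 were above every Control tumour, and Mutant 1 and Mutant 3 were within the Control range (difference 0.31, SE 0.17, two-sided exact permutation p = 0.114). Without Mutant 2 the Tcf7 difference was 0.21. Sp5, a zinc finger factor induced by Wnt in many cell types, was not well above background on any of the 8 arrays, with readings from -8.07 to -6.59, so no fold is given.

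Lgr5, Rnf43 and Znrf3 set the number of Wnt receptors at the cell surface. Rnf43 and Znrf3 are membrane ubiquitin ligases that remove Frizzled, and Lgr5 is an R-spondin receptor, a marker of several epithelial stem cells, that holds the ligases back. Lgr5 had the smallest p of the 9 measured genes. Its level was 3.47, 3.48, 3.13 and 2.54 in Control 1 to 4, against 3.82, 4.05, 3.42 and 3.95 in Mutant 1 to 4. Mutant 1, 2 and 4 were above all Control tumours, and Mutant 3 lay just under Control 1 and Control 2. The difference was 0.65 with an SE of 0.24 and a 95% interval from 0.09 to 1.21 (two-sided exact permutation p = 0.0857, where the smallest value that 4 against 4 tumours allow is 0.0286; limma unadjusted p = 0.0277 and adjusted p = 1.00). Control 4, the tumour with the highest Axin2 and Nkd2, had the lowest Lgr5. Leaving out single tumours gave Lgr5 differences from 0.45 (without Control 4) to 0.78 (without Mutant 3).

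Znrf3 varied over a 1.66-fold range and differed by 0.14 with a 95% interval from -0.23 to 0.50 (two-sided exact permutation p = 0.457). It stood at 0.43, 0.31, 0.16 and -0.17 in Control 1 to 4, against 0.18, 0.28, 0.26 and 0.55 in Mutant 1 to 4, with the lowest level again in Control 4. Without Control 4 the Znrf3 difference was 0.021. Rnf43 spread over an 8.73-fold range without any separation of the hosts. Its highest levels were in Control 2 (1.69) and Mutant 3 (1.56), and its lowest in Mutant 4 (-1.44) and Control 3 (-0.77), with 0.55, -0.05, 0.30 and -0.05 in Control 1, Control 4, Mutant 1 and Mutant 2. The difference was -0.26 with an SE of 0.71 (two-sided exact permutation p = 0.743), and it changed sign without Control 2 (0.18) or without Mutant 4 (0.25).

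Apcdd1, a membrane glycoprotein that binds Wnt and Lrp5 and inhibits the pathway at the cell surface, resembled Lef1. Its level was -1.46, -1.85, 0.62 and -1.35 in Control 1 to 4, against 1.91, 0.33, -2.26 and 1.29 in Mutant 1 to 4. Mutant 1 and Mutant 4 were the highest tumours and Mutant 3 was the lowest of the 8. The difference was 1.33 with an SE of 0.95 (two-sided exact permutation p = 0.314), 2.19 without Mutant 3 and 0.80 without Mutant 1.

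**Figure D2:**
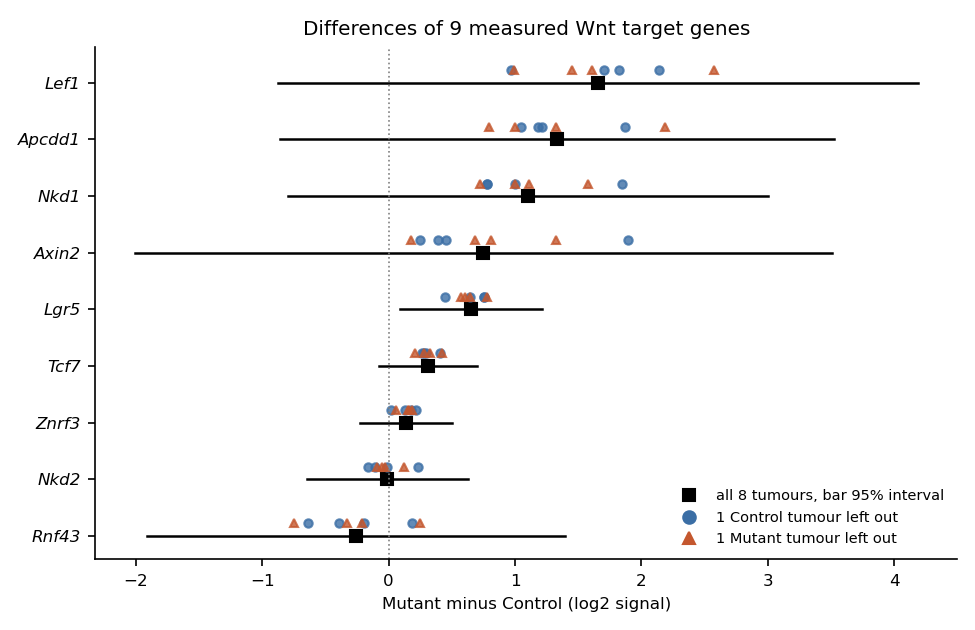
Mutant minus Control difference in log2 signal for the 9 measured genes, with squares and 95% intervals for all 8 tumours, blue circles for fits that left out 1 Control tumour and orange triangles for fits that left out 1 Mutant tumour. The interval of Lgr5 (0.09 to 1.21) lies above 0 before adjustment and the other 8 cross 0; the Axin2 difference moved from 0.17 to 1.89 as single tumours were left out.

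Within each host group, the same tumours stood out for several of the 9 genes. Mutant 1, Mutant 2 and Mutant 4 each held 8 of the 9 genes above the gene's mean over all tumours, whereas Mutant 3 held 2 of 9, like Control 1 and Control 2 (2 each). Control 3 and Control 4 held 3 of 9. The mean of the centred levels was -0.75, -0.42, -0.30 and 0.22 in Control 1 to 4, against 0.58, 0.72, -0.60 and 0.56 in Mutant 1 to 4. Mutant 3 thus stood apart from its own group, and Control 4 was the highest Control tumour with Axin2, Nkd1 and Nkd2 as the 3 genes above their means. The share of all genes above their means in each tumour was not counted, so these counts are not read as particular to the Wnt targets. Mutant 3 was also the lowest Mutant tumour for the skeletal muscle and T cell marker lists described below (-0.88 and -0.83). It was not so for the endothelial list (0.06, against -0.16 in Mutant 1).

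Control 4 and Mutant 3 both lay in the second row of the slide, so the differences were recomputed within each row, with 2 tumours against 2. In row 1 they were 2.49 for Axin2, 2.79 for Nkd1, 2.82 for Lef1 and 2.78 for Apcdd1. In row 2 the same genes stood at -0.99, -0.59, 0.50 and -0.12. Only the signs of Lef1, Lgr5 and Tcf7 were above 0 in both rows (Lgr5 0.46 and 0.84, Tcf7 0.56 and 0.07), and limma called no gene in either row. Whether the rows differed was not tested. With array weights, which give less weight to arrays far from their group, the differences over all 8 tumours were 2.87 for Lef1, 2.14 for Apcdd1, 1.90 for Nkd1 and 1.65 for Axin2 (limma adjusted p from 0.618 to 0.644).

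**Figure D3:**
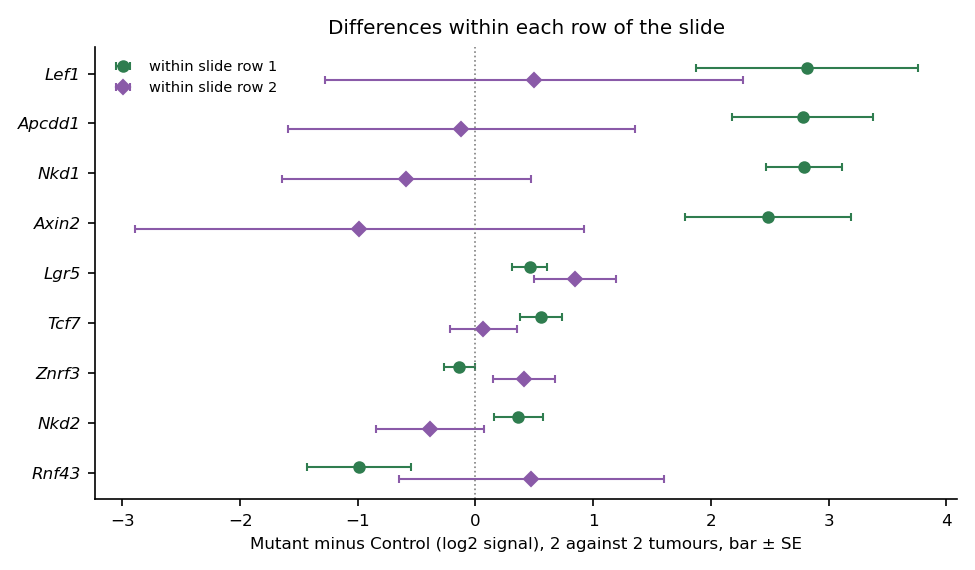
Mutant minus Control difference in log2 signal for the 9 measured genes within row 1 of the slide (green circles, Control 1 and 2 against Mutant 1 and 2) and within row 2 (purple diamonds, Control 3 and 4 against Mutant 3 and 4), with bars of 1 standard error from limma. Axin2, Nkd1 and Apcdd1 lie between 2.49 and 2.79 in row 1 and below 0 in row 2, while Lgr5 is above 0 in both.

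Among themselves the genes formed loose groups. Over the 36 pairs of measured genes, each across 8 tumours, 23 correlations were above 0, and 2 passed by Pearson's r after adjustment over the 36 pairs and none by Spearman's rho. Axin2 rose and fell with Nkd1 (r = 0.93, exact permutation p = 0.00218, adjusted 0.0393; rho = 0.74, p = 0.0458, adjusted 0.315), and r was 0.87 without Control 4 and Mutant 2, the tumours farthest from the median of Axin2. Axin2 and Nkd2 gave r = 0.90 (exact permutation p = 0.00129, adjusted 0.0393; rho = 0.79, p = 0.0279, adjusted 0.251), or 0.72 without the same 2 tumours. All correlations of Nkd2 rest on its brighter probe, and the second probe, which gave another picture, was not correlated. Lef1 went with Apcdd1 at r = 0.84 (exact permutation p = 0.00861, adjusted 0.103; rho = 0.83, p = 0.0154, adjusted 0.251; r = 0.93 without Control 1 and Mutant 4), which did not pass. Axin2 and Lgr5 gave r = -0.10 (exact permutation p = 0.821, adjusted 0.845; rho = 0.31, p = 0.462, adjusted 0.665), with Control 4 at opposite ends of the 2 genes, and r was 0.97 without Control 4 and Mutant 2. A row of the slide or a host group held 4 tumours, too few for a correlation of its own.

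**Figure D4:**
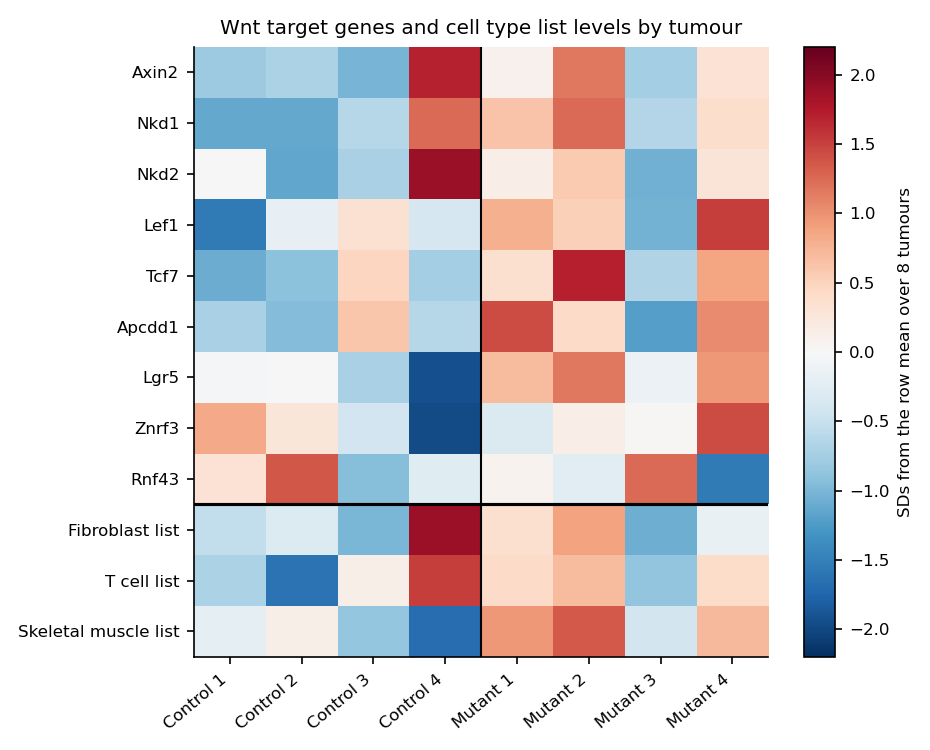
Level of the 9 measured genes and of 3 cell type lists in each tumour, as SDs from the row's mean over the 8 tumours, with Control tumours left and Mutant tumours right of the vertical line. Axin2, Nkd1 and Nkd2 peak in Control 4 or Mutant 2 as the fibroblast and T cell lists do, Lgr5 follows the skeletal muscle list, and Mutant 3 is low for most genes.

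Wnt target genes are made by several cell types of a tumour, and marker levels of 10 cell types were set beside them, giving 90 pairs of a gene and a list. Lgr5 followed the skeletal muscle list most closely. This list had 13 of 13 genes measured, 10 of them well above background on all 8 arrays, all 13 higher in Mutant tumours and 8 at an unadjusted p under 0.05. Of all genes, 52.4% were above 0 and 1.87% were higher at that p. The muscle level lay between -3.62 and 0.29 in Control and between -0.88 and 2.93 in Mutant tumours. The correlation with Lgr5 was r = 0.97 (exact permutation p = 0.000124, adjusted 0.0112 over the 90 pairs; rho = 0.98, p = 0.000397, adjusted 0.0342) and was r = 0.95 without Control 4 and Mutant 2. A fit with the muscle level as a further term, added once the values were known, left an Lgr5 difference of 0.068 with an SE of 0.17, in place of 0.65 (limma adjusted p = 1.00). The muscle level itself differed by 2.82 between the hosts, so over 8 tumours that fit cannot tell host and muscle level apart. In that fit Lef1 stood at 0.82, Apcdd1 at 0.45 and Tcf7 at 0.16, each lower than without it, and Axin2 at 1.25 and Nkd1 at 1.47. Lgr5 also ran against the simple epithelium list, whose 6 measured genes of 8 were all below 0 with a median difference of -0.50 (r = -0.90, exact permutation p = 0.0035, adjusted 0.0521; rho = -0.86, p = 0.0107, adjusted 0.138; r = -0.65 without Control 4 and Mutant 4). Znrf3 ran against this list as well (r = -0.90, exact permutation p = 0.00496, adjusted 0.0521), with r = -0.32 without the same tumours. Neither pair passed.

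Axin2 followed the fibroblast list, of which 12 of 12 genes were well above background on all 8 arrays. The fibroblast level lay between -1.17 and 2.18 in Control tumours, highest in Control 4, and between -1.26 and 1.03 in Mutant tumours, highest in Mutant 2. The correlation was r = 0.95 (exact permutation p = 0.000645, adjusted 0.0290; rho = 0.90, p = 0.00456, adjusted 0.103), or 0.79 without Control 4 and Mutant 2. Nkd1 (r = 0.84, exact permutation p = 0.00689, adjusted 0.0621; rho = 0.76, p = 0.0368, adjusted 0.258; r = 0.63 without Control 4 and Mutant 2) did not pass for this list. Nor did Nkd2 on its brighter probe (r = 0.90, exact permutation p = 0.00295, adjusted 0.0521). Axin2 also gave r = 0.82 with the Schwann cell, 0.82 with the T cell and 0.81 with the macrophage list, none of which passed. Control 4 was the highest tumour in these lists and in the fibroblast list, so the values do not tie Axin2 to 1 cell type. With the fibroblast level as such a term, likewise added later, the Axin2 difference was 0.77 with an SE of 0.30 and that of Nkd1 1.11 with an SE of 0.32. Their sizes were close to those without the covariate (0.75 and 1.10) and their errors smaller, and neither passed (limma adjusted p = 0.966 for each). Both genes followed the fibroblast level (r = 0.95 and 0.84), so the smaller errors came with the choice of term and support nothing further.

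Nkd1 passed with the T cell list, of which 19 of 19 genes were measured and 17 were well above background on all 8 arrays. The T cell level lay between -1.56 and 1.46 in Control and between -0.83 and 0.68 in Mutant tumours. The correlation was r = 0.90 (exact permutation p = 0.00171, adjusted 0.0424; rho = 0.95, p = 0.00114, adjusted 0.0342), or 0.87 without Control 2 and Control 4. Nkd2, on its brighter probe only, passed by rank alone (rho = 0.95, exact permutation p = 0.00114, adjusted 0.0342; r = 0.88, p = 0.00521, adjusted 0.0521; r = 0.70 without Control 2 and Control 4). The T cell factors Lef1 and Tcf7 did not pass with this list. Lef1 gave r = 0.44 (exact permutation p = 0.276, adjusted 0.606; rho = 0.40, p = 0.327, adjusted 0.684) and Tcf7 r = 0.49 (exact permutation p = 0.224, adjusted 0.561; rho = 0.48, p = 0.243, adjusted 0.625). Without Control 2 and Control 4, the tumours with the lowest and highest T cell level, these were 0.89 and 0.93. The remaining pair to pass was Nkd1 with 3 measured adipocyte genes of 6 (r = 0.74, exact permutation p = 0.00188, adjusted 0.0424; rho = 0.86, p = 0.0107, adjusted 0.138; r = 0.74 without Control 1 and Mutant 2). These 3 were Fabp4, Lep and Retn, of which Lep ranged over only 0.32 on the log2 scale. The adipocyte markers Adipoq, Plin1 and Cidec did not pass the filter. Nkd1 also gave r = 0.77 with the macrophage and 0.71 with the B cell list, neither of which passed. With the mean of each host group taken off, r of Nkd1 was 0.93 with the fibroblast and 0.92 with the T cell list. The values thus do not tie Nkd1 to 1 cell type. The part of cell types in the group differences of the measured genes, Lgr5 included, was not tested, and the covariate fits given are a description only.

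**Figure D5:**
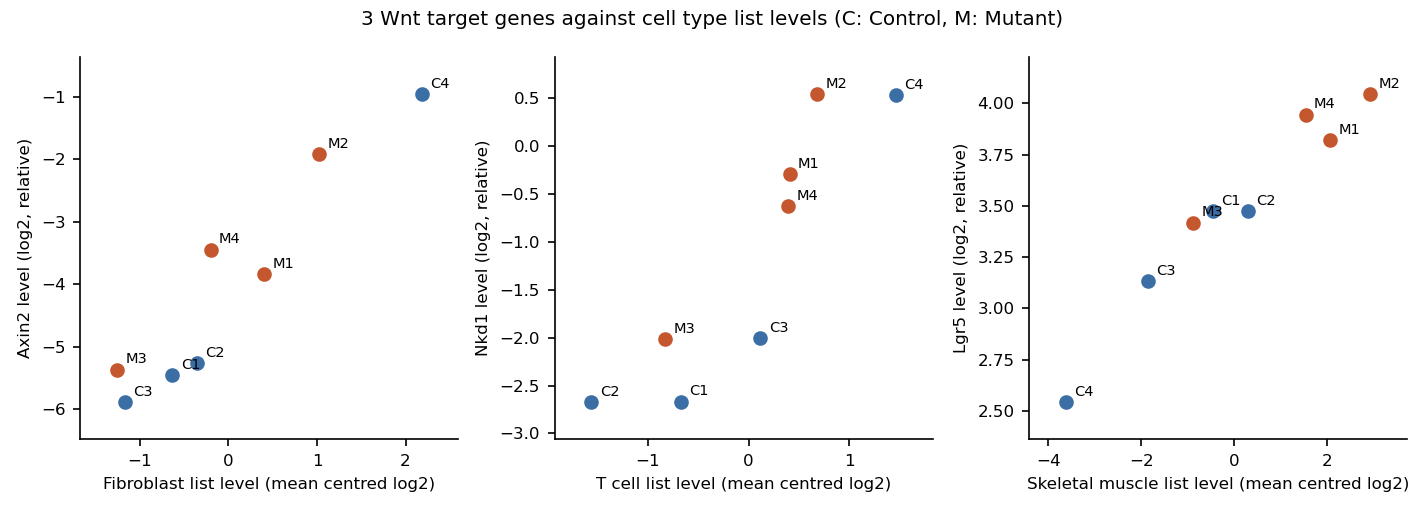
Log2 level of Axin2, Nkd1 and Lgr5 in each tumour (blue Control, orange Mutant) against the mean centred log2 level of the fibroblast, T cell and skeletal muscle lists. The correlations over 8 tumours are 0.95, 0.90 and 0.97, and Control 4 is the highest tumour for Axin2, level with Mutant 2 at the top for Nkd1 and the lowest for Lgr5.

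Of 14748 genes with a proper name that passed the filter, the 3 most like each target by Pearson's r over the 8 tumours are given as a description, since the ranking itself selects high values. For Lgr5 these were muscle genes, the myogenic factor Myf6 (r = 0.99), the cytochrome oxidase subunit Cox8b (0.99) and the myosin light chain Myl3 (0.99). Axin2 was closest to B4galt4 (0.99), the dystrophin gene Dmd (0.99) and Slc4a8 (0.99). Nkd1 was closest to Ism1, Tmeff2 and the interleukin 18 receptor gene Il18r1 (0.98 each), and Nkd2 to Rasgrp1 (0.99), a Ras activator known from lymphocytes, Slc27a3 (0.98) and Abcg3 (0.98). Next to Lef1 stood Slc25a27 (0.97), Foxd2 (0.97) and Tle1 (0.95), the last a co-repressor that binds Tcf and Lef factors. Apcdd1 had Cacna2d3 (0.97), Mrpl35 (0.97) and Ppfia4 (0.96), and Tcf7 had Exoc6b (0.96), Msn (0.93) and Phf21b (0.92). The genes nearest to Rnf43 were Zfp867 (0.98), Usp4 (0.96) and Qdpr (0.96), and those nearest to Znrf3 were Krtap31-1 (0.98), Safb2 (0.97) and Kat6a (0.97). Cacna2d3 and Ism1 had low mean levels (-6.05 and -5.01), so their r may rest in part on dim spots.

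The other genes of the pathway were read from lists of its machinery, ligands, secreted inhibitors and broader targets, and limma called none of them. Of 50 machinery genes 46 were measured, 31 of them above 0 and 15 below, with a median difference of 0.08 and a range from -0.69 to 0.63. At an unadjusted p under 0.05 there was 1, higher, where 2.91% of all genes were. This was Amer1, a scaffold of the destruction complex, at 0.20 ± 0.06 (SD, n = 4) in Control tumours and 0.43 ± 0.07 (SD, n = 4) in Mutant ones. The groups were 0.23 apart and without overlap, as in 1.42% of all genes (two-sided exact permutation p = 0.0286, limma adjusted p = 1.00). Amer1 was named for the smallest p of the 46 genes, so its permutation p is no separate support. The Frizzled receptors Fzd1 and Fzd2 differed by 0.39 and 0.33 and the Wnt cargo receptor Wls by 0.28. With the muscle level as a term Fzd1 stood at 0.22 and Fzd2 at 0.026, and with normexp Wls stood at 0.51. Beta-catenin itself, Ctnnb1, which was named beyond the rule for its role, stood at 0.03.

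Of 15 secreted inhibitors 9 were measured, 4 above 0 and 5 below, with a median of -0.01. At an unadjusted p under 0.05 there were 2, both higher, where 1.87% of all genes were. These 2, Wif1 and Notum, were named for their small p, and both are themselves often induced by Wnt. Wif1, which sequesters Wnt ligands, was at -5.88, -5.21, -4.69 and -2.32 in Control 1 to 4, against -0.86, -0.80, -3.00 and -1.17 in Mutant 1 to 4 (difference 3.07, two-sided exact permutation p = 0.0571, limma adjusted p = 1.00), with 3 of 4 Control arrays above background. With normexp background correction the Wif1 difference was 1.68. Notum, which strips the lipid from Wnt, was at 3.46, 3.33, 4.43 and 3.73 in Control 1 to 4, against 5.07, 5.01, 3.78 and 4.62 in Mutant 1 to 4 (difference 0.88, two-sided exact permutation p = 0.0571, limma adjusted p = 1.00). In both, Mutant 3 was the lowest Mutant tumour, as it was for Lef1 and Apcdd1. Sfrp4 differed by -1.44 and Dkk2 by 0.40, with SEs of 1.77 and 0.91. With the muscle level as a term they stood at -0.39 and 0.98, and with normexp Dkk2 stood at 0.046.

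Of 19 Wnt ligands 11 were measured, 4 above 0 and 7 below, with a median of -0.06. At an unadjusted p under 0.05 there was 1, higher, where 1.87% of all genes were. This was Wnt4, which was named after its values were seen. Its level was 0.54, 0.00, 1.15 and 1.10 in Control 1 to 4, against 3.00, 2.86, 0.61 and 3.30 in Mutant 1 to 4 (difference 1.75, SE 0.60, two-sided exact permutation p = 0.0857, limma adjusted p = 1.00). Mutant 1, 2 and 4 were all above the Control tumours and Mutant 3 was within their range. Within row 1 and row 2 of the slide, Wnt4 differed by 2.66 and 0.83, Wif1 by 4.72 and 1.42, and Notum by 1.64 and 0.12.

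The 23 broader targets respond to Wnt in some tissues and to other signals as well. Of 20 measured, 8 were above 0 and 12 below, with a median difference of -0.16. The mean over the list was of the other sign (0.24). That sign comes from Mmp7, with a measured difference of 6.08, which passed the filter only through the Mutant arrays. No direction is stated for the list. The matrix protease Mmp7 was not well above background in any Control tumour and was above it in all 4 Mutant tumours (limma adjusted p = 1.00). It was 34.7-fold higher there than a limit set for the Control tumours. The limit for each Control tumour was the dimmest signal scored as above background on its array, or the measured signal where that was brighter. In Control 3 the measured signal was the brighter (-5.32), so the limit is not strict and 34.7-fold is not a sure lower bound. Mmp7 entered the fit only through the Mutant arrays, so its p supports nothing. The 34.7-fold holds for the processed signal alone, since with normexp background correction the difference was 2.89 on the log2 scale. Sox9, named for its small p and at an unadjusted p under 0.05, read 0.98 ± 0.44 (SD, n = 4) in Control tumours and 0.41 ± 0.12 (SD, n = 4) in Mutant ones. The groups were -0.56 apart and without overlap, as in 1.42% of all genes (two-sided exact permutation p = 0.0286, limma adjusted p = 1.00), or -0.36 apart without Control 1. The kinase gene Pdk1 differed by -0.76 and the hyaluronan receptor Cd44 by -0.28, or by -0.43 and -0.11 with the muscle level as a term. The commonly used targets Myc and Ccnd1, named beyond the rule, differed by -0.06 and -0.21.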

How the data were processed

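Per the file headers, the authors' scanner files hold spot intensity from Agilent Feature Extraction 10.7.3.1 (the submitters' processing notes name 9.1), background-subtracted and detrended within the array but not scaled between arrays. The deposited value table holds the same intensity on a linear scale (column medians 52.8 to 61.8, uncentred). Flag columns deposited beside them have no unit (other).

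Outlier spots were dropped (66 to 117 per array), spots of a probe averaged, and log2 values centred on the 75th percentile of the array. Probes were named by RefSeq accession through a gene table of assembly GRCm38.p6 (32994 of 56605 probes had 1 gene, 0 several, 23611 none); the array was designed on another assembly, so no coordinates are given. A probe entered the fit if 4 or more of the 8 arrays showed it well above background, and the probe of highest mean stood for its gene. The hosts were set against each other in limma 3.58.1 (R 4.3.3), with Benjamini-Hochberg adjustment over 16068 genes, and single values by exact permutation over 70 arrangements. Correlations used all 40320 pairings. A list level is the mean of centred log2 levels, without the 10 genes. Thy1 stands in both the T cell and the fibroblast list.

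On data simulated for the comparison of 16068 genes, 49.1% of 2-fold and 77.5% of 4-fold changes were recovered, with 5.21% false calls. These shares are averages over genes drawn at random, with noise drawn for each gene by itself from a normal distribution. Shifts that many genes share within a tumour were not simulated. Residual SDs were 1.75 for Lef1, 1.52 for Apcdd1, 1.31 for Nkd1 and 1.91 for Axin2, so the shares need not hold for them. Precision rests on 4 tumours per group, and p-values measure the spread between them. The members and lists were chosen with earlier results of these data known. Named genes are the 10 targets, up to 4 genes of smallest p in the machinery, inhibitor and broader target lists, up to 3 genes of highest level in a cell type list, and the 3 genes most like each measured target; Epcam, Adipoq, Plin1, Cidec, Ctnnb1, Myc, Ccnd1 and Wnt4 go beyond this. Normexp, planned on mean spot signals, ran on the median signals. Alternatives covered background correction, scaling, filters, probe choice, the deposited table, variance trend, array weights, blocks, single tumours left out and 2 covariates. Tables were handled in Python 3.11.15 with pandas 2.3.3.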

Additional observations from a re-analysis of the deposited data

Results flagged for a closer look

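Of 68 sets of 4 tumours checked, 6 held a highest or lowest tumour whose gap to its nearest neighbour, divided by the range of its group, was above Dixon's 95% critical value for 4 samples; chance alone puts about 1 in 20 sets there. The 6 ratios lay between 0.838 and 0.934. Control 4 stood above the other Control tumours for Axin2 (-0.95, next -5.27) and for Sfrp4 (3.74, next -3.01). Mutant 3 stood below the other Mutant tumours for Wnt4 (0.61, next 2.86) and for the mean centred level of the 9 measured Wnt targets (-0.60, next 0.56). Mutant 4 was the lowest Mutant tumour for the simple epithelium list (-0.51, next -0.17), and Mutant 2 the highest for the adipocyte list (1.35, next -0.09), of which 3 genes were measured.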

How the results depend on the processing

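No gene was called under any of the alternatives. Lef1, Tcf7 and Lgr5 were above 0 in every setting, and the lowest adjusted p of any of the 9 targets was 0.176, for Nkd1 within row 1. Of 219 alternative values of the 9 targets, 15 had the opposite sign. Within row 2 of the slide these were Axin2 (-0.99), Nkd1 (-0.59), Apcdd1 (-0.12) and Rnf43 (0.47), and within row 1 Nkd2 (0.36) and Znrf3 (-0.14). Nkd2 also turned with array weights (0.17), the mean of its probes (0.54), its second probe (1.09) and the muscle covariate (0.15), and Znrf3 with the muscle covariate (-0.074). With a tumour left out Nkd2 ran from -0.16 to 0.24 and Rnf43 from -0.75 to 0.25. Among other genes Dkk2 turned in row 2 (-0.97) and Sfrp4 in row 1 (1.23), with single tumours left out giving -0.043 to 1.29 and -2.23 to 0.33. The median of the targets was 0.066 within row 2. The count at an unadjusted p under 0.05, 467, was 1280 with array weights, 1912 within row 1, 148 with the muscle and 736 with the fibroblast covariate, and 195 (without Mutant 1) to 972 (without Control 2) with a tumour left out; the cause was not tested. Tumours of the same replicate number did not deviate together (correlations 0.08, -0.31, 0.05 and -0.31). These values give no sign of a pairing by number, but they cannot exclude one. With the replicate block the median of the targets was 0.65, 371 genes were at an unadjusted p under 0.05, and 0 were called. Signals near background limit Axin2 and Sp5.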

Other observations

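Further probes of Tcf7 and Znrf3 pointed the same way as the main ones. A dimmer Tcf7 probe differed by 0.33 (standard error 0.20), beside 0.31 on the main probe. Znrf3 had 2 further probes, which differed by 0.38 and 0.13, beside 0.14. All 3 were well above background on all 8 arrays, and none passed (limma adjusted p = 1.00 over all probes).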
